A study of Mus musculus with 6 samples.

Results

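Ionotropic glutamate receptor genes were examined in the retina of wild-type C57BL6/J mice by RNA sequencing. The genes are a fixed list of AMPA, kainate and NMDA receptor subunits, and they were found by symbol in the deposited tables. Of the 10 listed genes, 9 were among the 15465 genes of the tables. These were Gria1, Gria2, Gria3 and Gria4 (AMPA), Grik1, Grik2 and Grik5 (kainate), and Grin1 and Grin2a (NMDA). The remaining one, Grin2b, had no row and was not analysed here. The study comprised 6 samples of 1 group, isolated retina of wild-type C57BL6/J animals with no treatment named in the labels. The sample titles name 3 biological replicates, each sequenced as 2 technical replicates, and RNA of 5 mice was pooled for a library. The technical replicates share 1 column of values, so n was 3 and each biological replicate is called a pool here. The source labels number the material differently from the titles. If they were right, the pools would share material and the SDs and tests below would not measure independent animals. The age of the mice is not given in the sources used here.

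Ionotropic glutamate receptors are tetrameric cation channels opened by glutamate. AMPA receptors assemble from GluA1 to GluA4 (Gria1 to Gria4) and carry fast transmission, and the presence of edited GluA2 makes them nearly impermeable to calcium. Kainate receptors assemble from GluK1 to GluK3 (Grik1 to Grik3), which form channels by themselves, and from GluK4 and GluK5 (Grik4, Grik5), which need a partner of the first kind. NMDA receptors need the obligatory GluN1 (Grin1), which binds glycine or D-serine, together with GluN2 subunits (Grin2a to Grin2d), which bind glutamate. In the retina, OFF bipolar cells respond to photoreceptor glutamate through kainate and AMPA receptors and horizontal cells mainly through AMPA receptors. Amacrine and ganglion cells use AMPA and NMDA receptors, while ON bipolar cells use the metabotropic receptor mGluR6.

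A stretch of the pore loop is shown because 1 of its codons is the place of Q/R editing in some AMPA and kainate genes. The NMDA genes differ from the AMPA and kainate genes at that codon and at other bases of the stretch. Each sequence is 33 bases of coding sequence, 5′ to 3′, from GENCODE M21 transcripts, with the codon of the Q/R site (AMPA and kainate) or the matching N site (NMDA) in capitals. Grin2d, no listed gene, is added because it had the highest level of the 3 GluN2 genes with a row.
Gria1: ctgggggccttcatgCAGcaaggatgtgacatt
Gria2: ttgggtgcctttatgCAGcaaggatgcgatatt
Gria3: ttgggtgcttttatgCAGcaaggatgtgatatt
Gria4: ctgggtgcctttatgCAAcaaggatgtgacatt
Grik1: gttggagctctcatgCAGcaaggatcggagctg
Grik2: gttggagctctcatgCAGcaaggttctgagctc
Grik5: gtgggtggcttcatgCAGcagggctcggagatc
Grin1: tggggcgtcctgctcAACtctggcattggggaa
Grin2a: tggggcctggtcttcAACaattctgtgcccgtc
Grin2d: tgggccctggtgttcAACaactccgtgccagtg

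All AMPA and kainate genes shown carry a glutamine codon at this place, spelled CAA in Gria4 and CAG in the others, and the NMDA genes carry the asparagine codon AAC. In Gria2 RNA, and partly in Grik1 and Grik2 RNA, the enzyme ADAR2 (gene Adarb1) edits this glutamine codon to one read as arginine. Gene-level values cannot show how much of the RNA was edited, nor tell flip from flop splice forms. The window of Gria2 matched that of Gria3 at 31 of 33 bases, Gria4 at 29 and Gria1 at 28. Grik1 and Grik2 matched each other at 30 of 33 bases, while Gria2 and Grin1 matched at 12. The codon is number 600 of the coding sequence in Gria1, 607 in Gria2, 612 in Gria3, 608 in Gria4, 621 in Grik1 and in Grik2, 605 in Grik5, 616 in Grin1, 614 in Grin2a and 639 in Grin2d.

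The windows lie in coding exons, with positions on GRCm38, which is not the build of the deposited values (mm9). Those of the AMPA genes are chr11:57243079-57243111 on the plus strand (Gria1, exon 11 of 16), chr3:80706896-80706928 on the minus strand (Gria2, exon 11 of 16), chrX:41610250-41610282 on the plus strand (Gria3, exon 11 of 15) and chr9:4464122-4464154 on the minus strand (Gria4, exon 12 of 17). The window of Grik5 is chr7:25022482-25022514 (exon 15 of 20), that of Grin1 chr2:25297371-25297403 (exon 13 of 20), that of Grin2a chr16:9653546-9653578 (exon 8 of 12) and that of Grin2d chr7:45854378-45854410 (exon 8 of 12), all on the minus strand. The windows of Grik1 (chromosome 16) and Grik2 (chromosome 10) cross an exon junction, so no single interval holds them.

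The deposited values were taken as RPKM (reads scaled to transcript length and to library size). This unit is inferred from the values, and the number of reads behind each value is unknown. The values summed to between 249532 and 302634 RPKM per pool. Retinal markers were present, with all 10 rod, 12 bipolar and 11 ganglion cell markers at 1 RPKM or more in every pool. The median of gene means was 709 RPKM for the rod list, 31.3 for bipolar, 54.3 for amacrine, 22.6 for ganglion and 7.46 for horizontal cell markers. Only 7 of 9 amacrine and 4 of 5 horizontal cell markers had a row. Markers of tissue next to the retina were present too, with medians of 169 RPKM for 20 lens genes and 33.5 for 10 pigment epithelium genes, and they differed between pools as given below. In whole tissue, fewer cells of a type and less RNA per cell cannot be told apart.

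The kainate genes Grik5 and Grik1 stood highest among the listed receptor genes. On the RPKM scale, which is per transcript length, the order of mean levels was Grik5, Grik1, Grin1, Gria2, Gria4, Gria1, Gria3, Grik2 and Grin2a. None of the 8 neighbouring pairs in this order had overlapping ranges over the 3 pools. The narrowest step was Gria2 over Gria4, at 1.18-fold. The median of the 9 gene means was 7.74 RPKM against 6.26 RPKM for all 15465 genes, and 6 of the 9 stood above the latter. Grik5 ranked 1886 among all genes by mean, Grin1 4923, Gria2 6223 and Grin2a 13105.

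**Figure D1:**
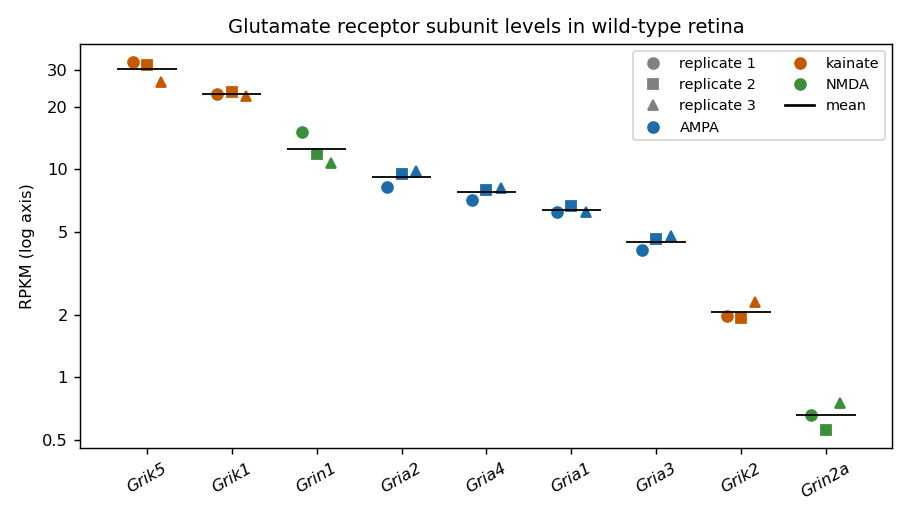
RPKM (log axis) of the 9 receptor subunit genes in each of the 3 pools (circle, square and triangle for replicates 1, 2 and 3) with the mean as a line, ordered by mean and coloured by class. Grik5 and Grik1 stand above all others in every pool, and Grin2a is under 1 RPKM in each.

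The 4 AMPA receptor genes had means between 4.48 and 9.17 RPKM. Gria2 had 8.25, 9.44 and 9.83 RPKM in pools 1, 2 and 3 (mean 9.17 ± 0.823, SD, n = 3). Gria4 had 7.12, 7.97 and 8.14 RPKM (7.74 ± 0.546). Gria1 had 6.26, 6.63 and 6.22 RPKM (6.37 ± 0.226). Gria3, with 4.08, 4.62 and 4.75 RPKM (4.48 ± 0.355), was the lowest of the class in every pool. Unscaled, Gria2, Gria3 and Gria4 were each lowest in pool 1 and highest in pool 3, whereas Gria1 was highest in pool 2. After the scaling described below, Gria1 was also highest in pool 3 (log2 deviation from its mean 0.0683) and lowest in pool 2 (-0.0675).

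As shares of the class, Gria2, the subunit that sets calcium permeability, took 33.0% ± 0.941 (SD, n = 3) and Gria4 27.9% ± 0.225. Gria1 took 23.0% ± 1.43 and Gria3 16.1% ± 0.272. The share of Gria4 lay between 27.7% and 28.1%, and that of Gria1 between 21.5% in pool 3 and 24.3% in pool 1. Gria2 exceeded Gria4 by 0.24 ± 0.03 on the log2 scale, Gria4 exceeded Gria1 by 0.28 ± 0.10, and Gria1 exceeded Gria3 by 0.51 ± 0.11, each in 3 of 3 pools. Gria2 amounted to 0.492 times the sum of the other AMPA genes (log2 ratio -1.02 ± 0.06). An exact two-sided sign-flip test over 3 pools cannot give a p under 0.25. That value was reached by each of these steps and by the others within the classes (adjusted p = 0.25 over 6 comparisons, exact test), so each gap is read against its own spread.

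The share of Gria2 depends on the length used. With 7198.5 bases (median of its transcripts linked to RefSeq), it has the longest transcript of the 9 genes, and on the scale of reads (RPKM multiplied by length) it took 40.0% ± 1.03 of the class, followed by Gria4 with 25.1%, Gria1 with 20.9% and Gria3 with 14.0%. The order within the class was the same on both scales.

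Among kainate receptor genes the partner-requiring Grik5 and the channel-forming Grik1 took nearly all of the RPKM. Grik5 had 32.6, 31.7 and 26.2 RPKM in pools 1, 2 and 3 (30.2 ± 3.48, SD, n = 3). Grik1 had 23.1, 23.4 and 22.4 RPKM (23.0 ± 0.490). Grik2 had 1.98, 1.93 and 2.30 RPKM (2.07 ± 0.201). Grik5 was lower in pool 3 than in both other pools, but still above Grik1 there. Grik1 kept a narrow range, and Grik2 was highest in pool 3.

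The class shares were 54.5% ± 2.73 for Grik5, 41.7% ± 2.10 for Grik1 and 3.78% ± 0.641 for Grik2. Grik5 exceeded Grik1 by 0.39 ± 0.15 on the log2 scale, with the gap narrowing to 0.22 in pool 3, and Grik1 exceeded Grik2 11.1-fold (3.48 ± 0.17 on the log2 scale) on the RPKM scale and 6.32-fold on the scale of reads. Against Grik1 and Grik2 together, Grik5 stood at 1.20-fold (0.26 ± 0.16, with 0.08 in pool 3). The other kainate genes were low, with Grik3 at 1.34, 0.92 and 1.29 RPKM and Grik4 at 1.00, 1.11 and 1.05 RPKM. With both included Grik5 had 52.4% ± 2.82 and Grik1 40.0% ± 1.88 of 5 genes, and Grik3 (2.07%) and Grik4 (1.84%) were the smallest.

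The obligatory NMDA subunit Grin1 far exceeded the listed GluN2 gene. Grin1 had 15.1, 11.8 and 10.8 RPKM in pools 1, 2 and 3 (12.6 ± 2.25, SD, n = 3), and pool 1 stood above the other pools. Grin2a had 0.66, 0.56 and 0.75 RPKM (0.657 ± 0.0950), the only one of the 9 genes with a mean under 1 RPKM. Grin1 exceeded Grin2a 19.1-fold (4.25 ± 0.36 on the log2 scale), in 3 of 3 pools, and 8.12-fold when 1 RPKM was added to both as a pseudocount. Of the 2 listed NMDA genes with a row, Grin1 took 94.9% ± 1.25 and Grin2a 5.08% ± 1.25. Grin2b is missing from these shares.

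NMDA genes outside the list held a large part of the class. Grin2d had 7.60, 6.53 and 5.51 RPKM (6.55 ± 1.05, SD, n = 3), 9.95-fold above Grin2a (4.53-fold with a pseudocount of 1 RPKM) and above it in each pool. Grin2c, another GluN2 gene, had 1.35, 1.26 and 1.00 RPKM, and the GluN3 genes Grin3b and Grin3a had means of 1.74 and 1.03 RPKM. Of the 6 NMDA genes among the rows, Grin1 held 52.8% ± 1.62, Grin2d 27.6% ± 0.836, Grin3b 7.38% ± 0.659, Grin2c 5.08% ± 0.355, Grin3a 4.40% ± 0.701 and Grin2a 2.82% ± 0.710. Within the 3 GluN2 genes that had a row, Grin2d took 77.7% ± 1.65, Grin2c 14.3% ± 0.694 and Grin2a 7.97% ± 2.05. Grin1 exceeded these 3 together 1.49-fold (0.57 ± 0.08 on the log2 scale). This ratio, that of Grin2d to Grin2a and that of AMPA genes to all NMDA genes below were chosen after the data were seen.

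**Figure D2:**
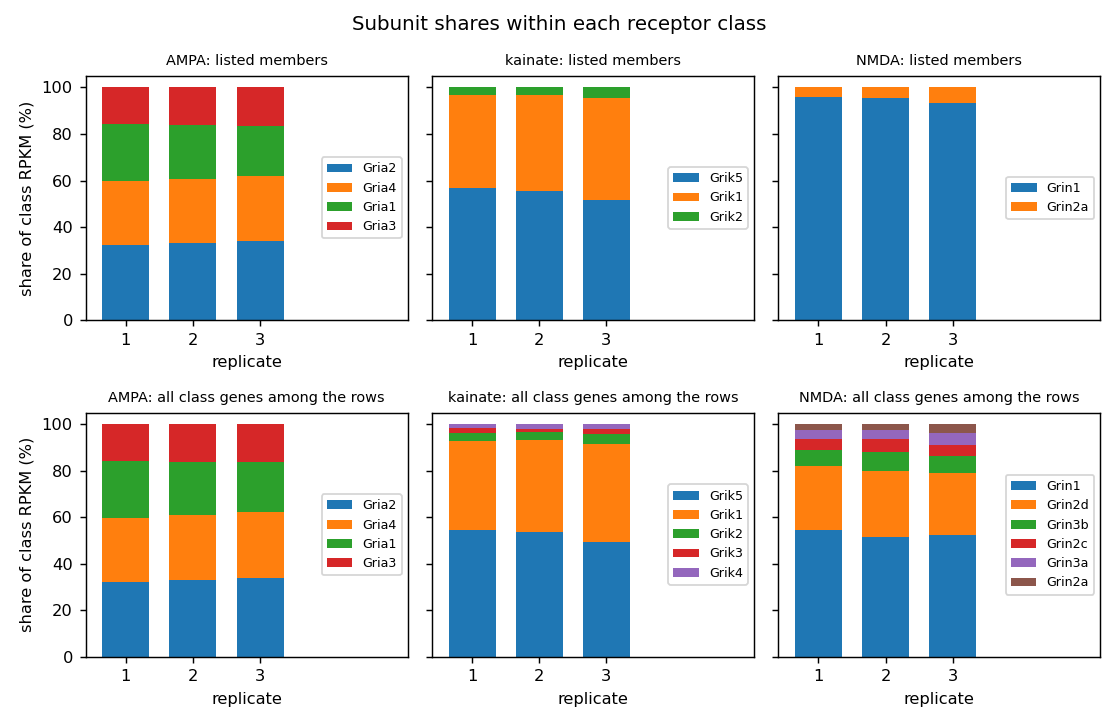
Share of the summed RPKM of each receptor class (percent) by subunit in replicates 1, 2 and 3, over the listed genes with a row (top) and over every gene of the class among the rows (bottom). In the lower NMDA panel Grin2d takes 27.6% on average and Grin1 52.8%, against 94.9% of the listed genes with a row.

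Summed over the listed genes, kainate subunits had 57.7, 57.0 and 50.9 RPKM in pools 1, 2 and 3, AMPA subunits 25.7, 28.7 and 28.9, and NMDA subunits 15.7, 12.4 and 11.5. The kainate sum was the highest and the NMDA sum the lowest in every pool. The kainate sum exceeded the AMPA sum 1.99-fold (0.99 ± 0.18 on the log2 scale, SD, n = 3), and the AMPA sum exceeded the NMDA sum 2.12-fold (1.08 ± 0.33). On the scale of reads these ratios were 1.25-fold and 3.26-fold. With all 6 NMDA genes among the rows, the AMPA sum was 1.18-fold the NMDA sum (0.24 ± 0.31). That log2 ratio was -0.10 in pool 1 and above 0 in the other pools. The ranges of both sums over the pools overlapped, and the exact two-sided sign-flip test gave p = 0.5 for this ratio. After subtraction of the deviation of genes of like GC content, described below, the ratio was 0.24 ± 0.10 and above 0 in 3 of 3 pools. The subtraction could hardly move its mean and drew the pools towards it, so this is no check of the direction. The exact two-sided sign-flip test gave p = 0.25, the smallest it can give here, for each of the 5 ratios fixed for testing (adjusted p = 0.25).

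**Figure D3:**
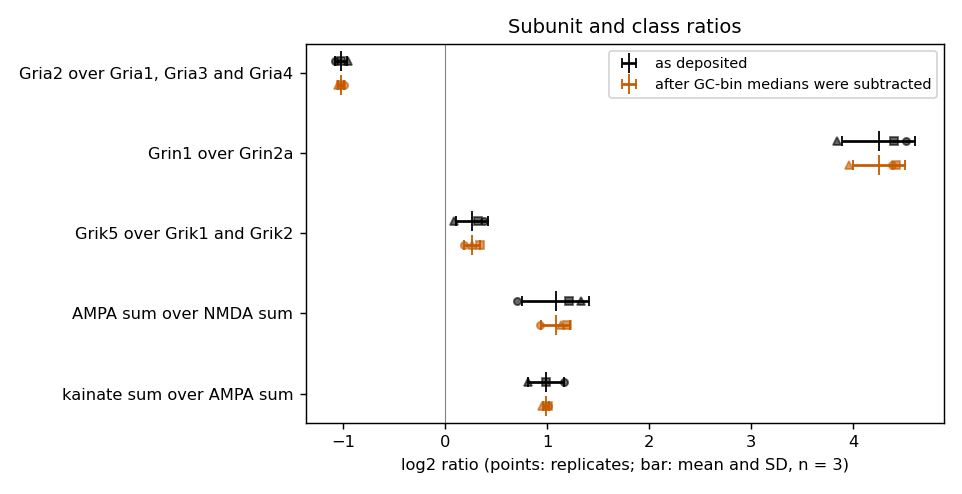
Log2 ratios between subunits and between class sums, with each of the 3 pools as a point and the mean and SD (n = 3) as bars, for values as deposited (black) and after the median deviation of genes of like GC content was subtracted in each pool (orange). The SDs of the 2 ratios of class sums are 0.14 and 0.03 after the subtraction against 0.33 and 0.18 before it. Their means could hardly change, since the subtracted deviations nearly cancel over the pools.

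The pools were then compared gene by gene. Each gene's variance on the log2(RPKM + 0.1) scale was set against that of genes of its level (limma, robust trended prior, Benjamini-Hochberg adjusted p under 0.05), for genes whose mean reached 1 RPKM. Among 12562 genes tested, 5.41% varied beyond the prior. Of the 9 receptor genes, 8 passed the filter on the mean and were tested, Grin2a being too low, and 0 were called (0 at an unadjusted p under 0.05, which 8.32% of all tested genes had). With limma's non-robust prior 0 of all 12562 genes were called. With the robust prior, the limma adjusted p of the 8 receptor genes was 0.993 each. The log2 SD of the 8 genes was between 0.07 for Gria1 and 0.26 for Grin1, with a median of 0.16 against 0.15 for all tested genes. Many calls over all genes fell on pairs of symbols in which one begins with the whole of the other and goes on with a digit, and both members of such pairs were set apart. None of the 9 genes belongs to such a pair. Without those pairs 0.936% of 10474 genes were called, again with 0 of the 8 receptor genes (limma adjusted p between 0.886 and 0.995).

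The small differences between pools went with the base composition of the transcripts. After scaling, Gria2 was higher in pool 3 than in pool 1 by 0.33 on the log2 scale, Gria3 by 0.29, Grik2 by 0.28 and Gria4 by 0.27, and these transcripts had between 40.2% and 44.0% GC. Gria1 and Grik1, with 48.6% and 48.1% GC, were higher by 0.07 and 0.04. The difference was -0.24 for Grik5 and -0.40 for Grin1, the genes of 62.3% and 59.1% GC. Grin2a, with 50.8% GC and the lowest level, was higher by 0.23. The same gradient was found over all genes. With tested genes in 5 bins of GC content, the median difference was 0.23 in the lowest bin, -0.000252 in the middle bin and -0.22 in the highest. Of 16 ionotropic subunit genes compared (the 9 listed and 7 more), the 5 in the highest bin were all lower in pool 3, and 10 of the other 11 were higher. Grid1, with 49.9% GC and a difference of -0.27, was lower. These directions did not follow the bin medians throughout. The median was -0.105 in the bin next to the highest, where Grik3 was higher by 0.02. In the middle bin Grin2a (0.23), Grik4 (0.14) and Grin3a (0.07) lay above the median and Grid1 below it. The share of all genes higher or lower in each bin was not computed.

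When the median deviation of genes of like GC content (20 bins) was subtracted in each pool, an alternative chosen after the data were seen, the SD of the kainate to AMPA ratio was 0.03 on the log2 scale in place of 0.18. That of AMPA to NMDA was 0.14 in place of 0.33, and that of Grik5 to Grik1 was 0.07 in place of 0.15. The SD was larger after the subtraction for Gria2 over Gria4 (0.0528 in place of 0.0298) and for Grin1 over the 3 GluN2 genes (0.0824 in place of 0.0750), and the SD of the Gria4 share was 0.656 percentage points in place of 0.225. The means of the kainate to AMPA, AMPA to NMDA and Grik5 to Grik1 ratios stayed at 0.99, 1.08 and 0.39. They could hardly move, because each gene's deviation is taken from its own mean over the pools, so the subtracted medians nearly cancel. Transcript length also went with the pool difference. With genes in 5 bins of length, the longest had a median of 0.13 and the shortest -0.07, and the AMPA genes and Grik2 belong to the longest bin. So do Grin2c, Grin2d and Grid1, which were lower in pool 3 (-0.33, -0.38 and -0.27). Grik3, Grik4 and Grin3a belong to it too and were higher in pool 3 (0.02, 0.14 and 0.07). Tissue markers differed between the same pools, with 562, 537 and 307 RPKM summed over 10 pigment epithelium genes and 2168, 2271 and 1622 over 8 Muller glia genes. The 20 lens genes summed to 6717, 5122 and 6949 RPKM, with medians of 150.5, 84.55 and 202.6 RPKM. Of these lens genes 9 were called as varying (limma, robust prior), against 5.41% of all genes. Sums were 8.26, 23.4 and 5.88 RPKM over 5 muscle genes and 18.5, 25.5 and 11.8 over 5 cornea genes. The part of these tissues in the differences of the receptor genes was not tested.

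**Figure D4:**
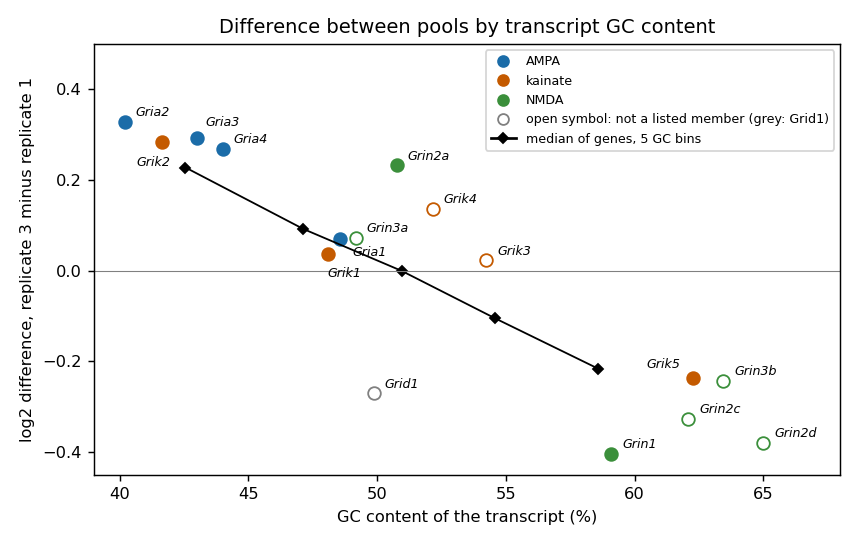
Difference between replicate 3 and replicate 1 on the scaled log2(RPKM + 0.1) scale against the GC content of the transcript (percent) for 16 ionotropic glutamate receptor genes, filled for listed genes, with the median of all tested genes in 5 bins of GC content (black line). Genes of low GC content lie above 0 and the 5 genes of highest GC content lie below it.

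Proteins that accompany AMPA receptors at the membrane were also read from the tables. All 14 auxiliary and assembly genes on the list had 1 RPKM or more in every pool, with a median of gene means of 9.56 RPKM against 6.26 for all genes. Cacng7, a type II TARP (a transmembrane AMPA receptor regulatory protein), led with 110.2, 98.8 and 102.3 RPKM in pools 1, 2 and 3 (103.7 ± 5.82, SD, n = 3), above the level of every AMPA subunit. The type I TARPs were lower, with Cacng4 at 28.0 ± 3.29 RPKM, Cacng3 at 19.0 ± 2.93, Cacng2 (stargazin) at 5.64 ± 0.753 and Cacng8 at 1.14 ± 0.119. Cacng5, the other type II TARP, had 13.6 ± 1.04 RPKM. Porcn and Abhd6, found with AMPA receptors during assembly and delivery, had 28.7 ± 3.91 and 12.05 ± 1.50 RPKM. Gsg1l had 7.06 RPKM, and the CKAMP proteins were low, with 4.70 RPKM for Shisa9, 3.14 for Shisa7 and 1.47 for Shisa6.

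The cornichon genes Cnih2 and Cnih3, AMPA receptor export partners, were the only ones of the 14 called as varying between pools (limma adjusted p = 0.00107 and 0.00157, against 5.41% of all genes called), and with the non-robust prior neither was. Cnih2 had 26.7, 5.93 and 25.8 RPKM in pools 1, 2 and 3, and Cnih3 had 2.98, 15.8 and 2.05 RPKM. Pool 2 was thus the low one for Cnih2 and the high one for Cnih3. Both, and Gsg1l, belong to the symbol pairs set apart above. Many calls fell on such pairs, with 0.936% of genes called without them. The 5.41% is therefore not the share among genes of such pairs, which was not computed. Of the 11 other auxiliary genes, 0 were called. The order of the deposited values of the cornichon genes therefore differs between pool 2 and the others, and neither mean describes all pools. Whether the RNA of these genes differs in this way was not tested. The kainate auxiliary subunits Neto1 and Neto2 had 2.34 ± 0.0971 and 2.26 ± 0.227 RPKM, near the level of Grik2 and below Grik1 and Grik5 in every pool.

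**Figure D5:**
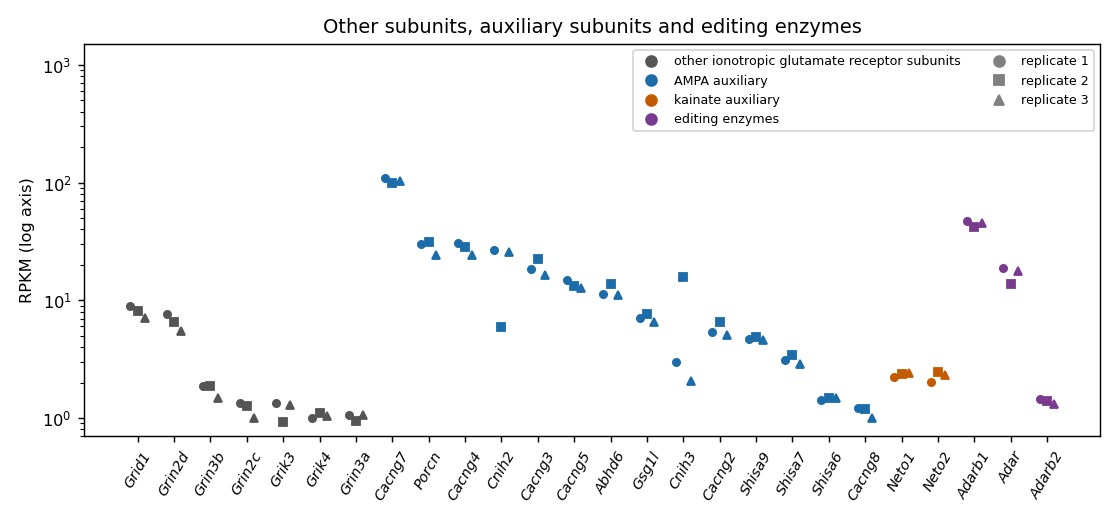
RPKM (log axis) in the 3 pools (circle, square and triangle for replicates 1, 2 and 3) of other ionotropic subunit genes, AMPA and kainate auxiliary genes and the RNA editing enzymes. Cacng7 lies between 98.8 and 110.2 RPKM, and Cnih2 and Cnih3 are the genes whose replicate 2 stands apart.

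Among RNA editing enzymes, Adarb1, which edits the Q/R codon of Gria2, had 46.7, 41.7 and 45.6 RPKM (44.7 ± 2.63, SD, n = 3). Adar, the broadly acting enzyme, had 16.7 ± 2.52 RPKM and Adarb2, for which no editing activity is known, 1.39 ± 0.0755. The level of Adarb1 was above that of each of the 9 receptor genes in every pool.

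Scaffold and trafficking genes had a median of 12.7 RPKM over 27 genes. Values of whole retina do not show which cells held these RNAs. Dlg4 (PSD-95), an anchor of NMDA receptors, had 219.6, 199.4 and 210.6 RPKM (209.9 ± 10.1, SD, n = 3) and ranked 105 among all genes. Nsf, a vesicle fusion ATPase that binds GluA2, had 156 ± 12.7 RPKM. Of the GluA2-binding PDZ proteins, Pick1 had 23.7 ± 4.01 RPKM and Grip1 9.31 ± 0.681. Camk2d (48.9 ± 1.65 RPKM) and Camk2b (39.5 ± 3.11) exceeded Camk2a (5.68 ± 0.315), the form abundant in forebrain. The Shank and Homer genes that link receptors to the scaffold had between 1.59 RPKM (Homer2) and 10.8 RPKM (Shank1). Of this list 26 genes were tested and 0 varied between pools (limma), with 1 at an unadjusted p under 0.05.

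Genes that handle the NMDA co-agonists glycine and D-serine had a median of 6.01 RPKM over 11 genes. The glycine transporter Slc6a9 led with 86.3, 85.0 and 71.3 RPKM (80.8 ± 8.27, SD, n = 3). Serine racemase (Srr), which makes D-serine, had 6.12 ± 0.607 RPKM, the D-serine carriers Slc1a4 and Slc7a10 had 5.51 ± 0.896 and 2.22 ± 0.477, and the degrading enzyme Dao had 0.05 ± 0.01. Phgdh, the first enzyme of serine synthesis, had 5.96, 6.14 and 3.26 RPKM, with pool 3 the lowest. Of this list 9 genes were tested and 0 were called (limma), with 1 at an unadjusted p under 0.05.

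The metabotropic glutamate receptors read here had a median of 4.72 RPKM over 7 genes. Grm6 (mGluR6) had 50.0, 50.8 and 41.2 RPKM and exceeded every ionotropic subunit in each pool. Grm8 (6.07 ± 0.304), Grm2 (5.90 ± 1.07) and Grm4 (4.72 ± 0.501) followed, near the level of Gria1 and Gria3. Grm7 had 3.74 ± 0.156 RPKM, Grm5 1.80 ± 0.195 and Grm3 0.483 ± 0.0493. Of these, 6 genes were tested and 0 were called (limma), with 0 at an unadjusted p under 0.05. Grid1, a delta receptor of the ionotropic family that glutamate does not open, had 8.08 ± 0.981 RPKM.

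The genes closest to each class sum were looked up among 12414 genes, by the smallest value of the largest log2 difference over the 3 pools. For the AMPA sum they were Gas7 (0.04), Ncl (0.06) and Atp2b1 (0.06). For the kainate sum they were Acly (0.04), Optn (0.05) and Tuba1b (0.06). For the NMDA sum they were Sox12 (0.03), Zfp651 (0.06) and Pak4 (0.08). Their unscaled values, like those of Grin1, were highest in pool 1 and lowest in pool 3. The choice by likeness to the NMDA sum nearly fixes this order, since Grin1 makes up most of that sum. Sox12 and Zfp651 belong to the symbol pairs set apart above. The 3 genes had between 58.1% and 60.1% GC, against 59.1% for Grin1. With 3 pools this likeness is mostly one of level.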

How the data were processed

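The deposited values of 3 tables were used, 1 for each biological replicate. They were taken as RPKM (or FPKM, which could not be told apart), inferred from the numbers the authors deposited, since the unit is stated neither in the headers nor in the labels. Per the submitters' processing notes, the tools were GSNAP and HTSeq and the build mm9, with no version. No source used here gives the annotation, gene lengths or depth, so no interval or floor needing depth is given. Of 15468 rows, 3 repeated symbols were dropped.

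Scaling for comparisons between pools used a trimmed mean of log ratios (30% and 5% trimmed from each end of log ratios and means), with factors 0.984, 1.09 and 0.931. Levels and shares are unscaled. The variance test used limma 3.58.1 (R 4.3.3, statmod 1.5.0) on log2(RPKM + 0.1) and was tested on simulated data. Lengths and GC content came from GENCODE M21 transcripts linked to RefSeq (90.2% of genes). The genes named are the listed members, the genes of the pathway lists, and the 3 genes nearest to each class sum. Of the pathway lists, 2 genes are not reported here. The members and lists were chosen with earlier results of these data known. The planned ratio of Grin2a to Grin2b was not computed, and Grin1 was set against Grin2a alone. Alternatives were read scale, denominator, pseudocount, filter, prior, scaling and left-out replicates.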

Additional observations from a re-analysis of the deposited data

How the results depend on the processing

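The direction of mean ratios was read under multiplication by length, a pseudocount of 1 and each pool left out. It was kept by the 6 steps within classes and the 5 ratios fixed for testing. The same held for 2 ratios added later (Grin2d to Grin2a, AMPA to all NMDA genes). GC-bin subtraction could hardly move these means, so it is no check of their direction. The share of Gria2 was 40.0% on the read scale (33.0% otherwise), and that of Grin1 was 52.8% of all class genes among the rows and 59.8% of Grin1 with the GluN2 genes (94.9% otherwise). The number of genes varying between pools was 679, against 0 with the non-robust prior (704 at an unadjusted p under 0.05) and 98 without the pairs of symbols in which one goes on from the other with a digit, and 466 without replicate 1, 304 without replicate 2 and 415 without replicate 3. The cause was not tested. None of the 8 receptor genes tested was called in any of the 9 settings (lowest limma adjusted p = 0.844), and Grin2a was not among them. No paired analysis was possible because there was 1 group. The depth and the authors' gene lengths are unknown.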
